A study of Mus musculus with 12 samples.

Results

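*Ifng* encodes interferon-γ, and the chromatin around it was examined in 3 subsets of mouse thymic iNKT cells. The gene (ENSMUSG00000055170.4, plus strand) lies at chr10:118441046-118445892 on mm10, and all regions of the deposited accessibility table that overlap it with 100 kb on either side were taken, which gave 24 of 63309 regions. The values come from ATAC-seq, in which a transposase inserts adapters into open chromatin. They are log2 normalized insertions per kilobase (kb) in regions of 500 bp. A region was taken as accessible in a group when its mean on the linear scale was at least 5.

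Invariant NKT cells are T cells with a semi-invariant receptor for lipids presented by CD1d. The iNKT1, iNKT2 and iNKT17 subsets of untreated C57BL/6 and *Hivep3*-/- mice, 8 to 9 weeks old, were measured in 2 libraries for each subset and genotype, 12 libraries in all. The *Hivep3*-/- mice, which lack the zinc finger protein HIVEP3, were also on the C57BL/6 background, and how the gene was disrupted is not given in the sources used here. Cells came from pooled thymi and were sorted as CD122+ ICOS- (iNKT1), CD122- ICOS+ Izumo1r+ CD138- (iNKT2) or CD122- ICOS+ Izumo1r- CD138+ (iNKT17). The subsets were mixed for the transposition and then separated a second time on ICOS and CD138 alone, so a cell of 1 subset that passed the second gate of another would be counted with it. The sample titles number single mice, while the protocol speaks of pooled thymi, and p-values may therefore measure only the spread between these libraries.

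Interferon-γ is the defining cytokine of type 1 immunity and activates macrophages through its receptor chains IFNGR1 and IFNGR2. In iNKT cells it is chiefly a product of the iNKT1 subset, while iNKT2 cells are known for IL-4 and iNKT17 cells for IL-17. Its gene is switched on by IL-12 through STAT4, by IL-18 and by the T-box factors T-bet and Eomes. Conserved non-coding sequences (CNS), named for their distance from the gene in kb, act as enhancers on both sides, and CTCF is known to bind in the first intron and at the borders of the locus. The long non-coding RNA *Ifngas1*, transcribed from the minus strand downstream, is known to promote *Ifng* expression.

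Each region is named here by the distance of its centre from the *Ifng* start site. The -0.2 kb region (chr10:118440640-118441139) covered the start site and holds the start of the 5′ UTR, and is called the promoter. The +1.0 kb region (chr10:118441807-118442306) lay in an *Ifng* intron, over an exon of *Gm49751*, a gene model still to be tested by experiment, on the same strand. The +66.8, +89.0 and +100.3 kb regions lay in introns of *Ifngas1*, and the other 19 regions were intergenic. Of 8 CNS distances known for this locus, 6 had a region within 2 kb, matched by distance alone. The nearest regions were -33.8 kb for CNS-34, -21.9 kb for CNS-22, -5.3 kb for CNS-6, +29.4 kb for CNS+29 and +45.9 kb for CNS+46. CNS+18, taken as a stretch from +18 to +20 kb, had 3 regions within reach (+17.9, +19.4 and +20.4 kb), and none of them is given its name here. No region of the table lay within 2 kb of CNS-54 or CNS+54.

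Sequences are given for the promoter and for the central 300 bases of the 5 distal regions on which the results turn. They are the plus strand of GRCm38.p6 (mm10), and capitals mark matches to AGGTGTGA or GGTGTG (T-box), AACCACA (Runt), TTCNNNGAA (STAT) and AGGTCA (the core bound by ROR factors) on either strand. The promoter is shown as the 250 bases that end just before the start site (chr10:118440796-118441045). It was chosen because it was called between the subsets and, in iNKT2 cells, between the genotypes.
Ifng promoter: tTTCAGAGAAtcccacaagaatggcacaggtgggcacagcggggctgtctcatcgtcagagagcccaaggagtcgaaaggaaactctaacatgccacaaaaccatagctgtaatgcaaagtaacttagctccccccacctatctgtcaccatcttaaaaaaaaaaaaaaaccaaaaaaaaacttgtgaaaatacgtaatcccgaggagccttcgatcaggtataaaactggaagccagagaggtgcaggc
The -21.9 kb region (shown chr10:118418981-118419280, matched to CNS-22) was far above the accessible level in all 12 libraries, while -5.3 kb (shown chr10:118435548-118435847, matched to CNS-6) reached it in iNKT1 libraries alone.
Ifng -21.9 kb: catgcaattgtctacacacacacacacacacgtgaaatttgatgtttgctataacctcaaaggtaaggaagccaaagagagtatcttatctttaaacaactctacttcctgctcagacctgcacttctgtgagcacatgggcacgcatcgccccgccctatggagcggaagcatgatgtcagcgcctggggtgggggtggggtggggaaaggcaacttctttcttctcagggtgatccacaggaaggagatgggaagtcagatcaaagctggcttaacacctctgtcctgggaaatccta
Ifng -5.3 kb: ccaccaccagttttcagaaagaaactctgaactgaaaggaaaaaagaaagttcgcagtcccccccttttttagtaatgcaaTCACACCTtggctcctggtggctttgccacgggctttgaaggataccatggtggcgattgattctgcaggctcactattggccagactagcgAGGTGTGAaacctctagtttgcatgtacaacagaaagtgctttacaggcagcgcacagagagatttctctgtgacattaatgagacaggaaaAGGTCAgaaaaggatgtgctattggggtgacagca
The +13.2 kb (shown chr10:118454146-118454445) and +20.4 kb (shown chr10:118461336-118461635) regions held the called downstream differences in genotype change, and +100.3 kb (shown chr10:118541216-118541515) was highest in iNKT17 cells.
Ifng +13.2 kb: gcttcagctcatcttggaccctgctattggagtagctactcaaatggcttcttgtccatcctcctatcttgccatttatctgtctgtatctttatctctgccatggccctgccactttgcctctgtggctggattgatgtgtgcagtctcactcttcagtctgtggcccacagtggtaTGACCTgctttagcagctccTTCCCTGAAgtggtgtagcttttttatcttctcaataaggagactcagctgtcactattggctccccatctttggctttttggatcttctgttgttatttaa
Ifng +20.4 kb: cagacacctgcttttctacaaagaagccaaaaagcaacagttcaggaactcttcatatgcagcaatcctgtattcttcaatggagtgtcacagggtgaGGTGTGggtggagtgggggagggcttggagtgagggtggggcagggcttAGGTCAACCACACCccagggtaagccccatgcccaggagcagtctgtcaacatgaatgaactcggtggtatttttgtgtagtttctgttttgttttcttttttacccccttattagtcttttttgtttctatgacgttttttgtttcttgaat
Ifng +100.3 kb: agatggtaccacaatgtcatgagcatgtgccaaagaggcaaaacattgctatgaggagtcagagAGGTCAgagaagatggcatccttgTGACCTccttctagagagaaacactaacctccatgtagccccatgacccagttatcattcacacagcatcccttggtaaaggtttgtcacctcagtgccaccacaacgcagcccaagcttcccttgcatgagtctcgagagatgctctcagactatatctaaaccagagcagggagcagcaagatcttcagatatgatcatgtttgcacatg

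The printed promoter sequence held TTCNNNGAA once, at bases 2 to 10. The whole -0.2 kb region also held 1 match each of the shorter T-box, the Runt and the ROR motifs. These 3 matches did not lie within the 250 printed bases. The iNKT1-high -5.3 kb region held AGGTGTGA on both strands, at bases 82 to 89 and 174 to 181 of the printed sequence. That motif was present in 2 of the 24 regions, -5.3 and +17.9 kb, against 2.91% of all 63309 regions. The shorter GGTGTG, which every AGGTGTGA contains, was in 11 of 24 regions (35.0% of all), AACCACA in 7 (17.4%) and TTCNNNGAA in 7 (13.4%). At +20.4 kb, matches of the ROR, Runt and T-box motifs ran into each other within bases 148 to 161. AGGTCA was in 10 of 24 regions (27.7% of all), with 2 copies in the iNKT17-high +100.3 kb region, on opposite strands. The +36.4 kb region, closed in iNKT17 cells, held 2 copies too, and the iNKT1-high -5.3, -0.2 and +28.2 kb regions held 1 each. The other motifs searched were TTTTCCA (NFAT, 4 regions, 10.1%), TGACTCA (bZIP, 1 region, 11.5%), AGGTGGC (a core of the CTCF motif, 3 regions, 12.4%), AGGGGGC (another form of that core, 1 region, 12.8%), ACAGGAAGT (ETS, 0 regions, 4.01%) and ACCGGAAGT (ETS, 0 regions, 0.823%). The +1.0 kb region in the intron held AGGGGGC, and +66.8 kb in *Ifngas1* held AGGTGGC, as did -21.2 and +5.4 kb. The -21.9 kb region held none of these letters in its 500 bases. GC content ranged from 35.4% to 49.6% (median 45.4%), against a median of 50.0% over all regions.

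The subset labels were checked at the start regions of marker genes. The linear values of 5 iNKT1 markers (*Tbx21*, *Il2rb*, *Xcl1*, *Nkg7*, *Klrd1*) summed to 561–570 in iNKT1 libraries and to 212–258 in the others. Those of 5 iNKT17 markers summed to 204–224 in iNKT17 libraries and 16.4–21.3 in the others. For 4 iNKT2 markers the sums were 181–222 in iNKT2, 119–163 in iNKT1 and 92.1–126 in iNKT17 libraries. Between C57BL/6 iNKT1 and iNKT2 cells *Il4* (-0.60, limma adjusted p = 0.00529) and *Izumo1r* (-0.85, adjusted p = 0.00312) differed, both under 3-fold. *Icos* (0.06, adjusted p = 0.758) and *Il17rb* (0.18, adjusted p = 0.361) did not separate these subsets. Of the markers of other cells, 0 of 4 had a start region in the table for double-positive thymocytes, 1 of 4 for B cells (*Pax5*), 1 of 4 for myeloid cells (*Cd14*) and 1 of 2 for natural killer cells (*Klrb1c*). In C57BL/6 mice *Pax5* was lower in iNKT1 than in iNKT2 cells (-1.54, limma adjusted p = 9.95e-06, under 3-fold), *Klrb1c* was higher (1.93, adjusted p = 4.41e-06) and *Cd14* differed by 0.15 (adjusted p = 0.605). Their part in the differences between subsets was not tested. *Klrb1c* encodes a surface protein that the study also used to define stages of iNKT cells, so it does not mark natural killer cells alone. At the *Hivep3* start region, group means lay between 6.40 and 6.68, and 0 of the 20, 18 and 12 tested regions at *Hivep3* were called between genotypes in iNKT1, iNKT2 and iNKT17 cells, although the start region passed the adjusted p in iNKT2 cells (-0.28, adjusted p = 0.0322), which does not check the deletion. Depth cannot be read from normalized values. Deeper libraries were taken to hold more distinct values at or under their median, and these numbered 134–219 in C57BL/6 libraries. In *Hivep3*-/- libraries they numbered 227 and 491 (iNKT1), 91 and 118 (iNKT2) and 85 and 73 (iNKT17).

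Summed over the 24 regions, accessibility was highest in iNKT1 and lowest in iNKT17 cells in both genotypes. The sums on the linear scale were 531 and 496 in C57BL/6 iNKT1, 341 and 323 in iNKT2 and 250 and 224 in iNKT17 libraries. In *Hivep3*-/- mice they were 559 and 530, 258 and 251, and 222 and 198 in the same order. The ranges of the 3 subsets did not overlap within a genotype, and *Hivep3*-/- iNKT2 libraries lay below both C57BL/6 iNKT2 libraries. The number of accessible regions was 20, 16 and 10 in C57BL/6 iNKT1, iNKT2 and iNKT17 cells and 20, 13 and 9 in their *Hivep3*-/- counterparts. Because these are bulk samples, fewer cells with an open region and less opening per cell cannot be told apart.

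**Figure D1:**
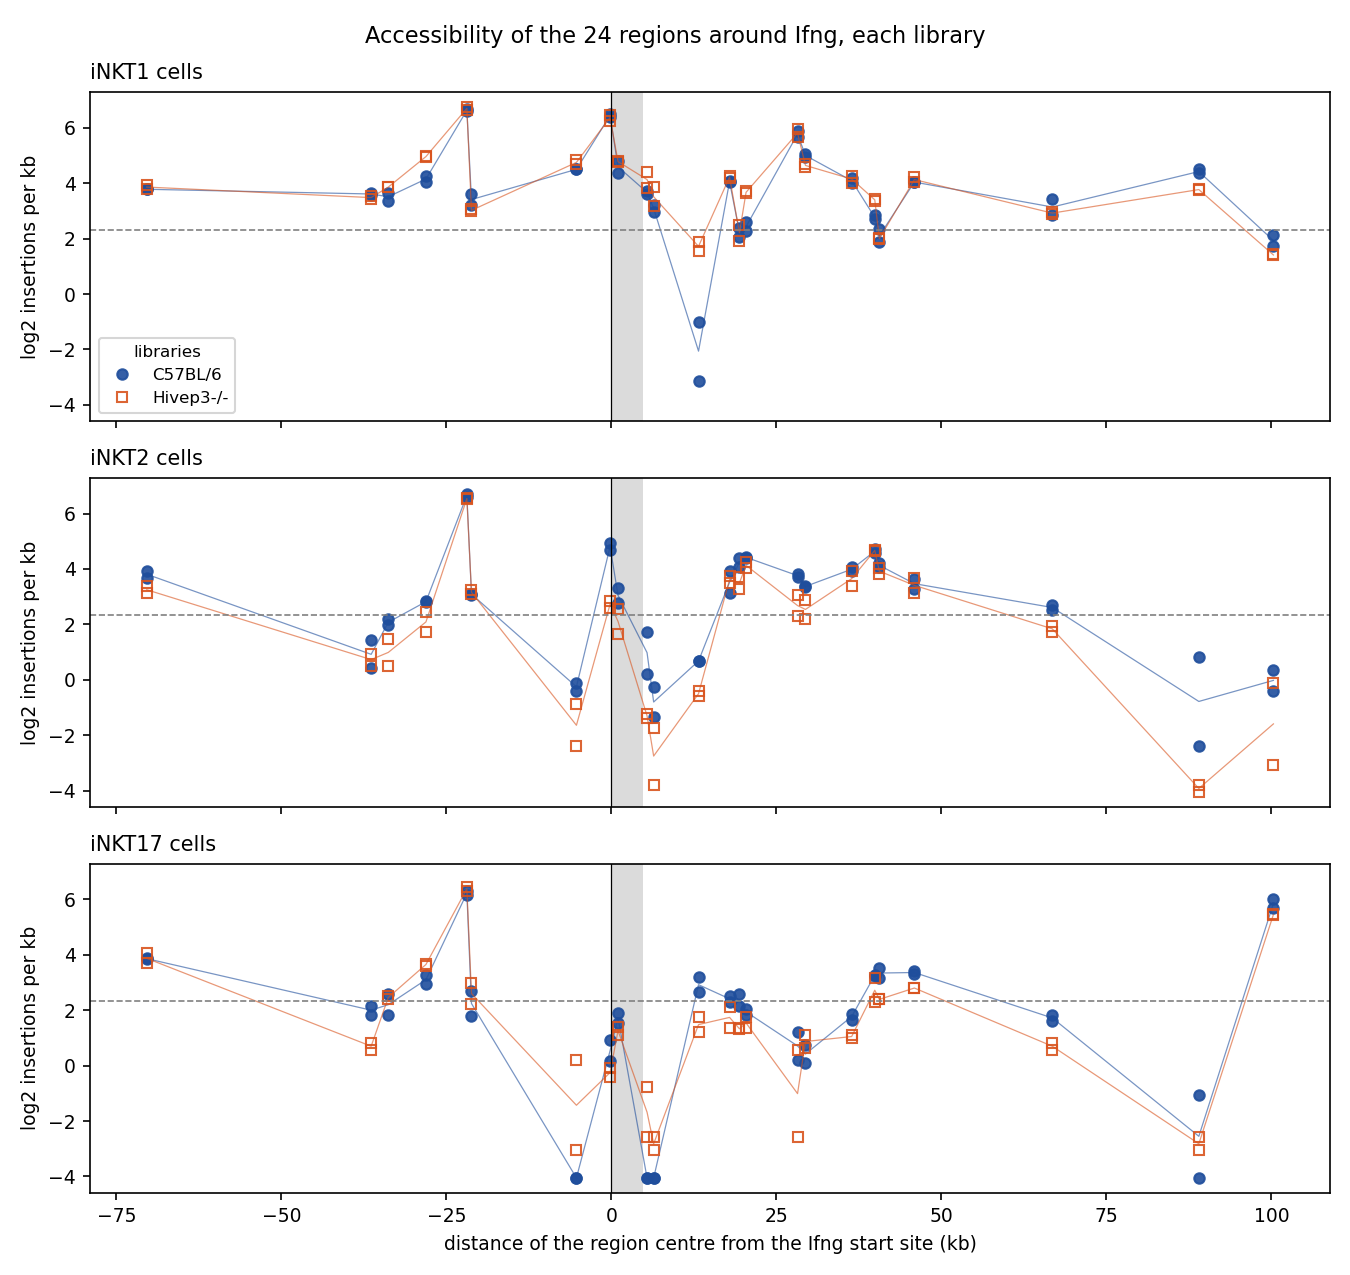
Accessibility (log2 insertions per kb, y axis) of the 24 regions by the distance of their centre from the *Ifng* start site (kb, x axis), with 1 panel per subset. Filled circles are the 2 C57BL/6 and open squares the 2 *Hivep3*-/- libraries, thin lines join group means, the grey band is the gene and the dashed line a linear value of 5. The promoter falls from iNKT1 (6.44) through iNKT2 (4.81) to iNKT17 (0.54) in C57BL/6 cells, while the -21.9 kb region stays at 6.22–6.70 in every group.

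At the promoter, iNKT1 libraries were open, iNKT17 libraries were closed and iNKT2 libraries lay between them. C57BL/6 libraries held 6.48 and 6.40 in iNKT1, 4.93 and 4.69 in iNKT2 and 0.18 and 0.91 in iNKT17 cells. *Hivep3*-/- libraries held 6.47 and 6.26 in iNKT1, 2.60 and 2.85 in iNKT2 and -0.41 and -0.10 in iNKT17 cells. The genotypes thus overlapped in iNKT1 cells and were separate in iNKT2 and iNKT17 cells, where both *Hivep3*-/- libraries were below both C57BL/6 libraries. Group means ± SD (n = 2) were 6.44 ± 0.06, 4.81 ± 0.17 and 0.54 ± 0.51 in C57BL/6 and 6.37 ± 0.15, 2.73 ± 0.18 and -0.25 ± 0.22 in *Hivep3*-/- iNKT1, iNKT2 and iNKT17 cells.

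The subsets were compared within each genotype to ask where the locus is open in each of them. All differences were tested with limma over the whole table, in regions accessible in at least 1 compared group, and calls needed 3-fold or more and an adjusted p (Benjamini-Hochberg) under 0.1. In C57BL/6 mice, the promoter was higher in iNKT1 than in iNKT2 cells by 1.63 (SE 0.24, 3.09-fold, limma adjusted p = 9.29e-05). It was higher in iNKT1 than in iNKT17 cells by 5.89 (SE 0.24, 59.5-fold, adjusted p = 1.2e-09) and lower in iNKT17 than in iNKT2 cells by 4.27 (log2 difference -4.27, adjusted p = 3.29e-08). In *Hivep3*-/- mice the difference between iNKT1 and iNKT2 cells was 3.64 (12.5-fold, adjusted p = 7.74e-08), that between iNKT1 and iNKT17 cells 6.62 (adjusted p = 5.58e-10) and that between iNKT17 and iNKT2 cells -2.98 (adjusted p = 6.14e-07). The C57BL/6 difference between iNKT1 and iNKT2 cells was close to the 3-fold threshold and fell below it, at 1.51 (adjusted p = 0.00213), without C57BL/6 iNKT2 replicate 2.

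Over the window, 12 of 22 tested regions were called between C57BL/6 iNKT1 and iNKT2 cells, where 16.0% of all tested regions were called, with 8 higher (7.33% of all tested) and 4 lower (8.71%) in iNKT1. Between iNKT1 and iNKT17 cells 13 of 24 were called (20.5% of all tested), 11 higher (9.72%) and 2 lower (10.8%) in iNKT1. Between iNKT17 and iNKT2 cells 8 of 18 were called (16.2%), 2 higher (8.49%) and 6 lower (7.72%) in iNKT17. In *Hivep3*-/- mice 12 of 22 were called between iNKT1 and iNKT2 cells (17.3%), 11 higher (8.77%) and 1 lower (8.54%) in iNKT1. Between iNKT1 and iNKT17 cells the count was 14 of 22 (19.3%), 13 higher (9.48%) and 1 lower (9.83%), and between iNKT17 and iNKT2 cells 9 of 16 (15.6%), 1 higher (8.25%) and 8 lower (7.33%). The median difference between C57BL/6 iNKT1 and iNKT2 cells was 0.95 over the tested regions of the window and 0.01 over all tested regions. Since a region had to be accessible in a compared group to be tested, these counts describe the locus and are no test of it. In the 100 kb beyond each side, 3 of 8 tested regions were called between C57BL/6 iNKT1 and iNKT2 cells. Between iNKT1 and iNKT17 cells 10 of 12 were called there, 4 higher and 6 lower in iNKT1, and between iNKT17 and iNKT2 cells 5 of 9. In *Hivep3*-/- mice these flank counts were 2 of 8, 10 of 12 and 6 of 9. Frequent calls between subsets were thus not particular to the window. In both genotypes, -36.4, -5.3, +5.4, +6.4 and +89.0 kb (iNKT1) and +100.3 kb (iNKT17) were accessible in 1 subset alone. They were tested through the group in which they are high, which limits what their p-values show.

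Of the 24 regions, 8 were called higher in C57BL/6 iNKT1 cells than in both other subsets: -36.4, -5.3, -0.2, +5.4, +6.4, +28.2, +29.4 and +89.0 kb. In *Hivep3*-/- mice these 8 and +1.0 kb were. No share over all regions is given beside these counts, so they describe the locus alone. At -36.4 kb the C57BL/6 difference from iNKT17 cells fell below 3-fold without iNKT1 replicate 2 (1.57) or iNKT17 replicate 2 (1.45), and with 1 added on the linear scale (1.40). The -5.3 kb region (CNS-6) was closed in the other subsets. It held 4.50 and 4.50 in C57BL/6 iNKT1 and 4.82 and 4.68 in *Hivep3*-/- iNKT1 libraries, against -0.10 and -0.41 (C57BL/6) and -0.88 and -2.39 (*Hivep3*-/-) in iNKT2 libraries. Both C57BL/6 iNKT17 libraries were at -4.05, the lowest value of those libraries. The *Hivep3*-/- iNKT17 libraries were at -3.06, the lowest value of that library, and at 0.19. No library outside iNKT1 reached the accessible level. The difference between C57BL/6 iNKT1 and iNKT2 cells was 4.75 (SE 0.84, adjusted p = 0.00037), and no fold is given against iNKT17 because both libraries sat at the lowest value.

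Just downstream of the gene, +5.4 and +6.4 kb were also above the accessible level in iNKT1 libraries alone, while the iNKT2 and iNKT17 libraries of *Hivep3*-/- mice overlapped at both, as they did at -5.3 kb. At +5.4 kb, iNKT1 libraries held 3.73 and 3.62 (C57BL/6) and 3.84 and 4.42 (*Hivep3*-/-), and iNKT2 libraries 1.74 and 0.21 (C57BL/6) and -1.22 and -1.38 (*Hivep3*-/-). Both C57BL/6 iNKT17 libraries were at the lowest value of -4.05. The *Hivep3*-/- ones were at -0.78 and at -2.58, the lowest value of that library. At +6.4 kb, iNKT1 libraries held 3.23 and 2.96 (C57BL/6) and 3.17 and 3.85 (*Hivep3*-/-), iNKT2 libraries -0.26 and -1.35 (C57BL/6) and -3.79 and -1.72 (*Hivep3*-/-), and iNKT17 libraries were at their lowest values of -4.05 to -2.58. Against iNKT2 cells in C57BL/6 mice, iNKT1 cells were higher by 2.70 (SE 0.66, adjusted p = 0.00401) at +5.4 kb and by 3.89 (SE 0.80, adjusted p = 0.00124) at +6.4 kb.

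Farther downstream, +28.2 and +29.4 kb (CNS+29) were graded like the promoter. The +28.2 kb region held 5.88 and 5.66 in C57BL/6 iNKT1, 3.72 and 3.81 in iNKT2 and 1.23 and 0.20 in iNKT17 libraries, and 5.95 and 5.67, 3.05 and 2.31, and 0.57 and -2.58 in the *Hivep3*-/- ones. The value of -2.58 is the lowest of its library. At +29.4 kb the values were 5.05 and 4.95, 3.40 and 3.35, and 0.75 and 0.10 in C57BL/6 and 4.68 and 4.60, 2.89 and 2.20, and 1.10 and 0.63 in *Hivep3*-/- libraries. The 3 subsets did not overlap at either region in either genotype. The difference between C57BL/6 iNKT1 and iNKT2 cells was 2.01 (SE 0.69, adjusted p = 0.0281) at +28.2 kb, where it was lost without C57BL/6 iNKT1 replicate 1 (adjusted p = 0.114) or iNKT2 replicate 1 (adjusted p = 0.102). It was 1.63 (SE 0.29, adjusted p = 0.000405) at +29.4 kb, where it fell below 3-fold, to 1.58, without C57BL/6 iNKT1 replicate 1 and, to 1.54, with 1 added on the linear scale.

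The +89.0 kb region, inside *Ifngas1*, was open in iNKT1 cells alone. It held 4.50 and 4.35 in C57BL/6 and 3.80 and 3.75 in *Hivep3*-/- iNKT1 libraries. C57BL/6 iNKT2 libraries held 0.84 and -2.39 and iNKT17 libraries -1.06 and -4.05, and all 4 *Hivep3*-/- libraries of these subsets were at their lowest values, -4.05 to -2.58. In C57BL/6 mice iNKT1 cells exceeded iNKT2 cells by 5.20 (SE 1.03, adjusted p = 0.000947). The low libraries varied widely, and the 95% interval of this difference ran from 2.97 to 7.43.

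Another set of regions was highest in iNKT2 cells. They were +19.4, +20.4, +39.9 and +40.6 kb, and in C57BL/6 mice the first 2 were called above both other subsets. At +19.4 kb, C57BL/6 libraries held 2.05 and 2.40 in iNKT1, 4.41 and 4.06 in iNKT2 and 2.60 and 2.16 in iNKT17 cells, and *Hivep3*-/- libraries 2.50 and 1.93, 3.28 and 3.71, and 1.32 and 1.35. At +40.6 kb the values were 1.87 and 2.33, 4.20 and 4.06, and 3.52 and 3.17 in C57BL/6 and 2.01 and 2.00, 4.02 and 3.81, and 2.39 and 2.39 in *Hivep3*-/- libraries. Both iNKT2 libraries of each genotype were above the other subsets at these regions. The +17.9 kb region, which also lies near CNS+18, had another order, with 4.08 and 4.04, 3.12 and 3.92, and 2.52 and 2.30 in C57BL/6 iNKT1, iNKT2 and iNKT17 libraries and 4.27 and 4.17, 3.74 and 3.49, and 2.13 and 1.35 in *Hivep3*-/- ones. In C57BL/6 mice, iNKT1 cells were lower than iNKT2 cells by 2.01 at +19.4 kb (log2 difference -2.01, SE 0.28, adjusted p = 6.49e-05), with -2.00 at +20.4 kb (SE 0.22, adjusted p = 8.5e-06), -1.87 at +39.9 kb (SE 0.24, adjusted p = 2.85e-05) and -2.04 at +40.6 kb (SE 0.23, adjusted p = 8.76e-06). In *Hivep3*-/- mice only +40.6 kb passed both thresholds in this comparison (-1.91, adjusted p = 1.12e-05), while the differences were -1.28 at +19.4 kb (adjusted p = 0.00183) and -0.47 at +20.4 kb (adjusted p = 0.0929). Whether these differences changed with genotype was tested by interaction terms.

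The last region of the window was open in iNKT17 cells. At +100.3 kb, an *Ifngas1* intron, iNKT17 libraries held 6.01 and 5.69 (C57BL/6) and 5.42 and 5.48 (*Hivep3*-/-), iNKT1 libraries 1.73 and 2.13 (C57BL/6) and 1.40 and 1.43 (*Hivep3*-/-), and iNKT2 libraries 0.36 and -0.41 (C57BL/6) and -0.13 and -3.06 (*Hivep3*-/-). Only iNKT17 cells reached the accessible level, in both genotypes, so the region was tested through the group in which it is high. The log2 difference of iNKT17 against iNKT2 cells was 5.87 (SE 0.65, adjusted p = 7.32e-06) in C57BL/6 and 7.05 (SE 0.65, adjusted p = 1.72e-06) in *Hivep3*-/- mice. These data do not tie the region to a target gene.

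Some other regions were open in all subsets, and others were not. The -21.9 kb region (CNS-22) held 6.68 and 6.59, 6.69 and 6.61, and 6.29 and 6.15 in C57BL/6 iNKT1, iNKT2 and iNKT17 libraries, and 6.75 and 6.65, 6.56 and 6.51, and 6.46 and 6.31 in *Hivep3*-/- ones. It was open in iNKT17 libraries, whose promoter was closed, at a level 1.33-fold under that of C57BL/6 iNKT1 cells (log2 difference of iNKT1 against iNKT17 0.41, SE 0.09, adjusted p = 0.00106). Between C57BL/6 iNKT1 and iNKT2 cells the difference was -0.02 (95% interval -0.20 to 0.17). The +45.9 kb region (CNS+46) held 4.04 and 4.04, 3.65 and 3.29, and 3.32 and 3.40 in C57BL/6 and 4.03 and 4.23, 3.68 and 3.14, and 2.81 and 2.79 in *Hivep3*-/- libraries, accessible in every group. At -33.8 kb (CNS-34), iNKT1 libraries were higher at 3.36 to 3.87, with 2.20 and 1.97 (C57BL/6) and 0.51 and 1.47 (*Hivep3*-/-) in iNKT2 and 2.57 and 1.83 (C57BL/6) and 2.53 and 2.39 (*Hivep3*-/-) in iNKT17 libraries. The +36.4 kb region was closed in iNKT17 cells alone, with 4.17 and 4.02, 4.06 and 3.92, and 1.66 and 1.88 in C57BL/6 and 4.27 and 4.02, 3.94 and 3.37, and 0.99 and 1.11 in *Hivep3*-/- libraries. The -70.4, -36.4, -28.1, -21.2, +1.0, +39.9 and +66.8 kb regions had group means between 0.70 and 4.96 and, with the exception of -70.4, -21.2 and +39.9 kb, were highest by mean in iNKT1 cells in both genotypes.

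**Figure D2:**
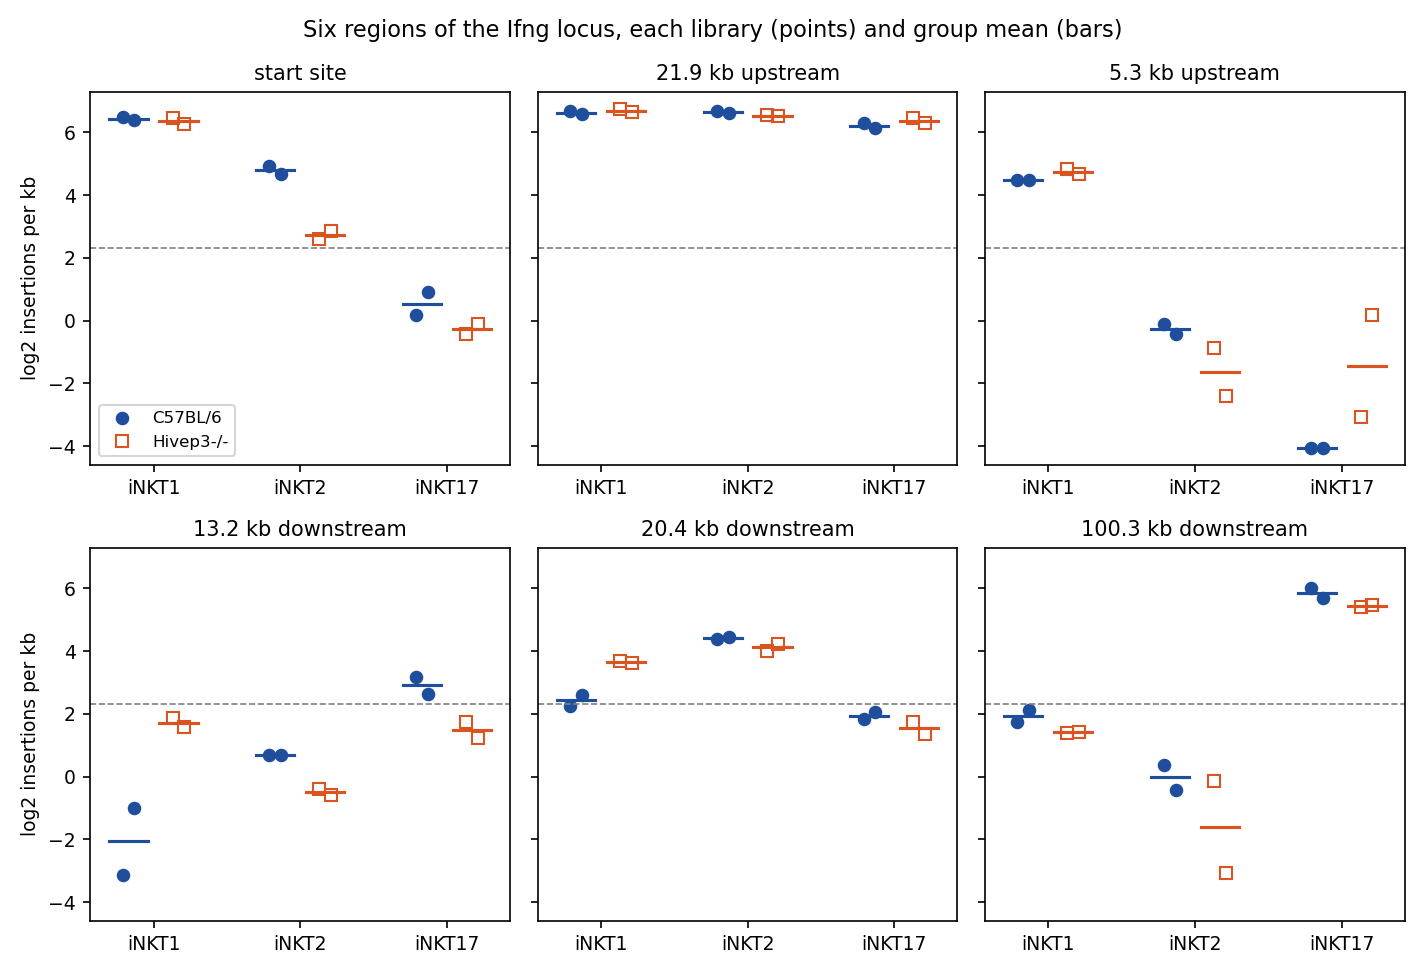
Accessibility (log2 insertions per kb, y axis) by subset (x axis) at the promoter and 5 distal regions. Points are single libraries (filled circles C57BL/6, open squares *Hivep3*-/-), bars are the means of 2 libraries and the dashed line is a linear value of 5. The promoter of iNKT2 cells is lower in *Hivep3*-/- (2.73) than in C57BL/6 libraries (4.81), and the +20.4 kb region of iNKT1 cells is higher (3.67 against 2.43).

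Within the window, most differences between subsets were called in both genotypes. How often this held over all regions is not given, so the shares describe the window alone. Between iNKT1 and iNKT2 cells 9 regions were called in the same direction in both, of 12 in each genotype, which is 75.0% of each list. Between iNKT1 and iNKT17 cells 12 were shared, of 13 in C57BL/6 and 14 in *Hivep3*-/- mice (92.3% and 85.7%), and between iNKT17 and iNKT2 cells 7, of 8 and 9 (87.5% and 77.8%). The regions called between iNKT1 and iNKT2 cells in C57BL/6 alone were +19.4, +20.4 and +39.9 kb, all higher in iNKT2. Those called in *Hivep3*-/- alone were -33.8, -28.1 and +1.0 kb, all higher in iNKT1. A call in 1 genotype does not show a difference between them, which was tested separately.

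**Figure D3:**
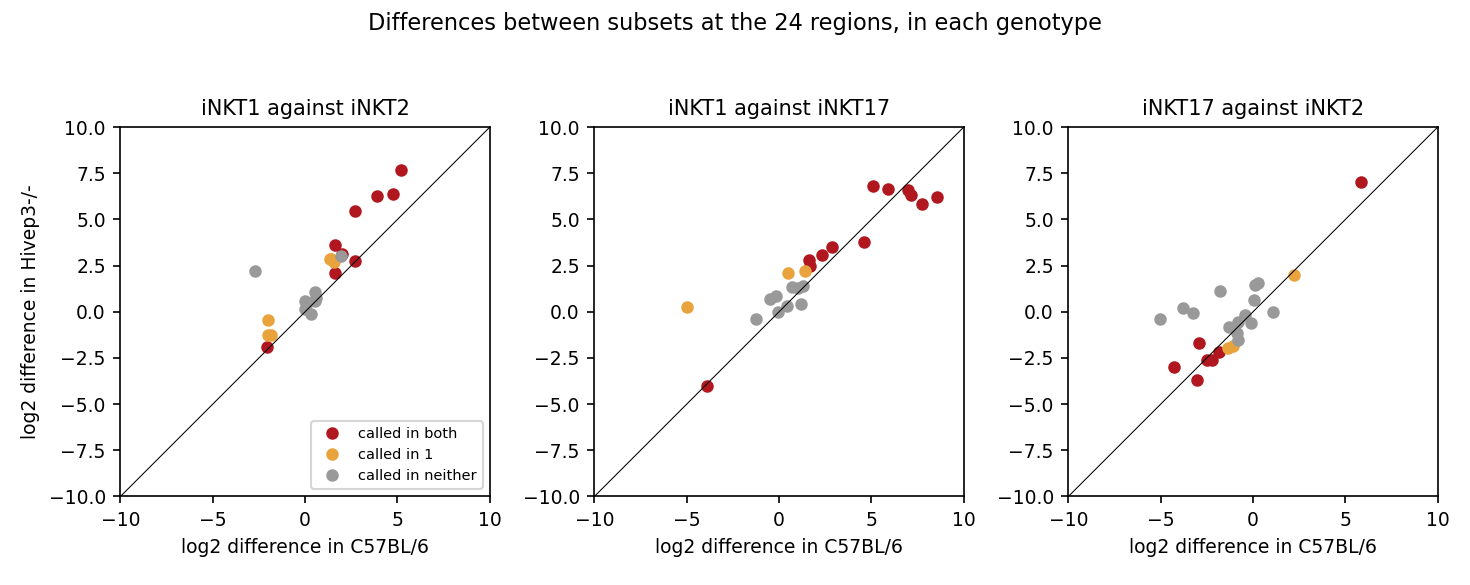
Log2 difference between subsets at each of the 24 regions in C57BL/6 (x axis) and in *Hivep3*-/- mice (y axis), with 1 panel per pair of subsets and the line of equal difference. Red points are called in both genotypes, orange in 1 and grey in neither, and regions not tested are drawn in grey with their fitted value. For iNKT1 against iNKT2 cells most points lie above the line, the promoter at 1.63 in C57BL/6 and 3.64 in *Hivep3*-/- mice.

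The genotypes were compared within each subset to ask whether loss of HIVEP3 changes the locus. In iNKT2 cells the promoter fell by 2.08 on the log2 scale (95% interval -2.60 to -1.57, SE 0.24, 4.24-fold, limma adjusted p = 0.000285). It was the only region called, 1 of 16 tested, where 1.68% of all tested regions were called and 1.20% were called lower. The log2 change stayed between -2.21 and -1.93, and the region was called, in each of the 8 alternative settings, which included leaving out each of the 4 libraries. In iNKT1 cells the promoter change was -0.07 (95% interval -0.59 to 0.45, adjusted p = 0.944). In iNKT17 cells the promoter was accessible in neither genotype and was not tested.

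The change between genotypes at the promoter differed between iNKT1 and iNKT2 cells, by 2.01 (SE 0.34, 95% interval 1.28 to 2.75, adjusted p = 0.00486). Between iNKT17 and iNKT2 cells the difference was 1.29 (SE 0.34, adjusted p = 0.0848), under 3-fold, and 1.65 (adjusted p = 0.0359), past 3-fold, without C57BL/6 iNKT17 replicate 2. Other measures differed between the iNKT2 libraries of the genotypes as well. The summed level of the 5 iNKT1 markers was 250–258 in C57BL/6 and 212–232 in *Hivep3*-/- iNKT2 libraries, and 5 of 5 had a start region. The summed level of the 4 iNKT2 markers was also lower, at 202–222 against 181–191, while that of the T lineage markers with a start region (2 of 3) was higher, at 110–125 against 136–147, as was that of *Klrb1c*, at 4.92–6.37 against 7.75–8.31. The start region of *Nkg7*, a granule protein of cytotoxic lymphocytes, held 3.89 and 3.61 (C57BL/6) against 1.44 and 1.47 (*Hivep3*-/-) in iNKT2 libraries (-2.29, SE 0.25, adjusted p = 0.000197). That of *Xcl1*, a chemokine, held 4.12 and 3.86 against 3.33 and 2.61 (-1.02, SE 0.28, adjusted p = 0.0329). *Tbx21* (-0.29, adjusted p = 0.357) and *Il2rb* (-0.07, adjusted p = 0.576) did not pass, and *Klrd1* was not accessible. The *Hivep3*-/- iNKT2 libraries also had fewer distinct low values, 91 and 118 against 219 and 159. The part of these measures in the promoter result was not tested.

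Besides the promoter, 4 regions in iNKT2 cells passed the adjusted p without reaching 3-fold, all lower in *Hivep3*-/- libraries, where 16.4% of all tested regions passed at any fold. They were -70.4 kb (-0.56, adjusted p = 0.0708), -28.1 kb (-0.73, adjusted p = 0.0607), +1.0 kb (-0.94, adjusted p = 0.0708) and +29.4 kb (-0.83, adjusted p = 0.0860). Of the 16 tested regions 13 had a negative change, with a median of -0.45 against 0 over all tested regions. The regions share their libraries and are not independent. The -21.9 kb region differed by -0.11 (95% interval -0.30 to 0.07).

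In iNKT1 cells 0 of 20 tested regions were called by limma (1.15% of all tested regions), with 3 at an unadjusted p under 0.05, as were 17.8% of all tested regions. At an adjusted p under 0.1 and any fold there were 2, against 9.42% of all tested regions. The +20.4 kb region held 2.26 and 2.59 in C57BL/6 and 3.70 and 3.63 in *Hivep3*-/- iNKT1 libraries, without overlap, a difference of 1.24 (SE 0.22, 2.36-fold, adjusted p = 0.00485). Its iNKT2 libraries held 4.39 and 4.45 (C57BL/6) and 4.02 and 4.24 (*Hivep3*-/-) and its iNKT17 libraries 1.83 and 2.05 (C57BL/6) and 1.74 and 1.35 (*Hivep3*-/-). Both *Hivep3*-/- iNKT1 libraries thus lay between the C57BL/6 iNKT1 and the iNKT2 libraries. The other was -28.1 kb, with 4.03 and 4.27 in C57BL/6 and 4.99 and 4.93 in *Hivep3*-/- libraries (0.81, SE 0.23, adjusted p = 0.056).

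In iNKT17 cells 0 of 12 tested regions were called by limma (0.271% of all tested regions), with 7 at an unadjusted p under 0.05, as were 15.8% of all tested regions. At an adjusted p under 0.1 and any fold, +19.4 kb (-1.05, SE 0.28, adjusted p = 0.0766) and +40.6 kb (-0.95, SE 0.23, adjusted p = 0.0477) were lower in *Hivep3*-/- libraries, against 4.65% of all tested regions. Both are regions that were highest in iNKT2 cells. The *Hivep3*-/- iNKT17 libraries had the fewest distinct low values of all, 85 and 73, and the part of depth in these values was not tested.

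**Figure D4:**
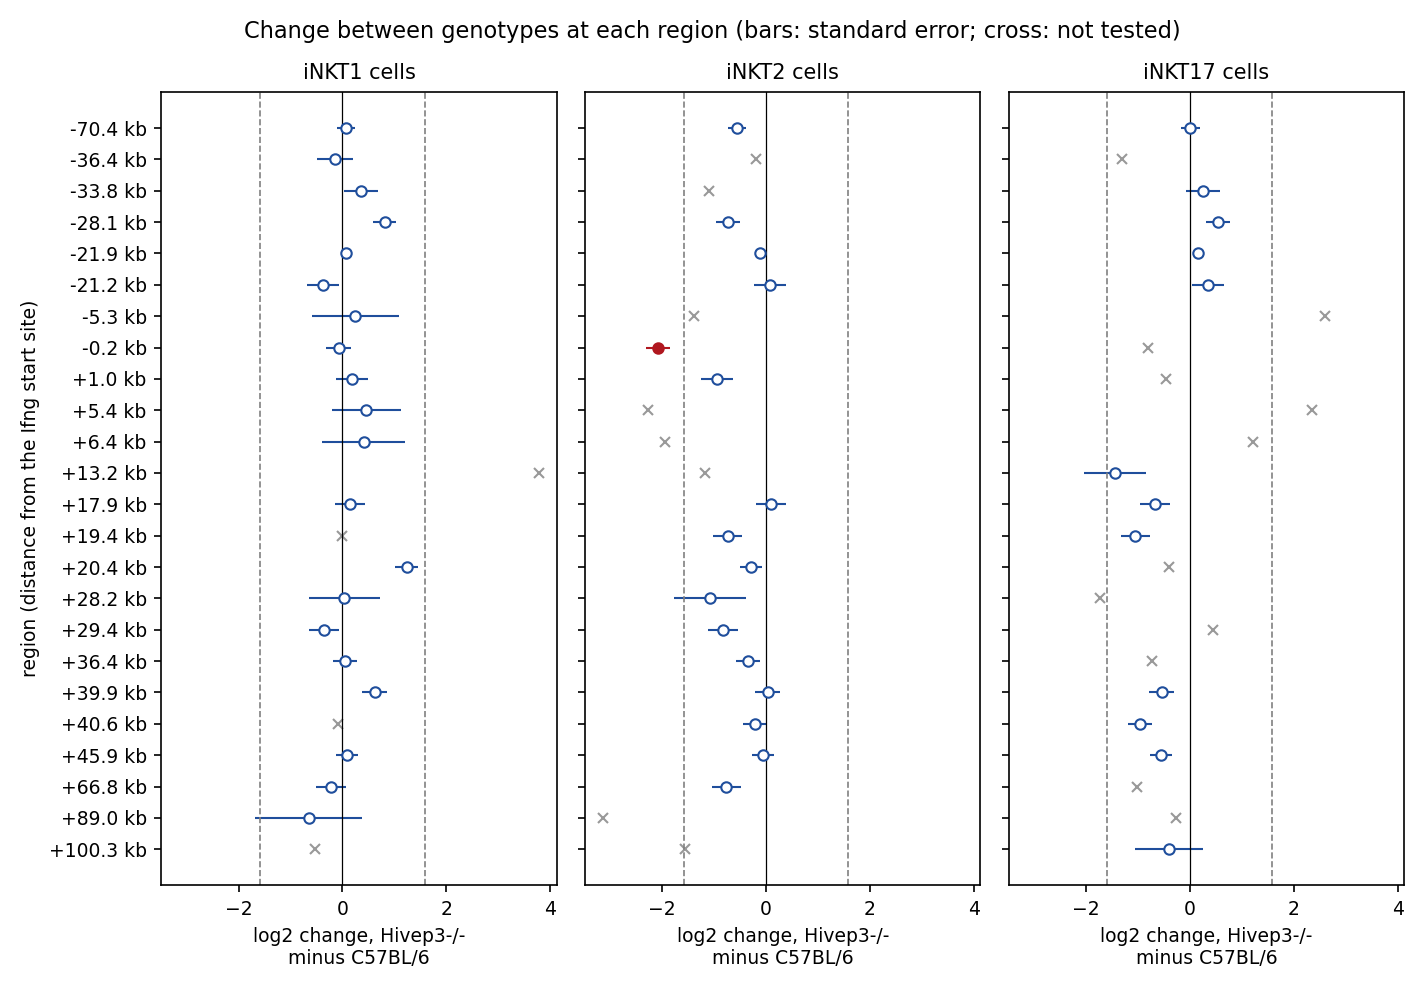
Log2 change between genotypes (*Hivep3*-/- minus C57BL/6, x axis) at each of the 24 regions, listed by distance from the *Ifng* start site (y axis), with 1 panel per subset. Circles with bars are the change and its standard error in tested regions, the filled red circle is the called one, crosses are regions accessible in neither genotype and dashed lines mark 3-fold. The promoter of iNKT2 cells (-2.08) is the single called change.

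Changes with genotype were then compared from subset to subset by interaction terms. For iNKT1 against iNKT2 cells 1 of 22 tested regions was called, the promoter (3.06% of all tested regions), and a fit with the replicate block called +5.4 kb as well (2.73, adjusted p = 0.107 without and 0.0667 with the block). At an adjusted p under 0.1 but under 3-fold (10.5% of all tested regions passed at any fold), -28.1 kb differed by 1.54 (adjusted p = 0.0145), +20.4 kb by 1.53 (adjusted p = 0.0124) and -33.8 kb by 1.45 (adjusted p = 0.0878). Of the 22 regions 21 had a positive difference, with a median of 0.68 against -0.01 over all tested regions. Each of these terms uses the same 8 libraries. The count was 5 without *Hivep3*-/- iNKT2 replicate 2, 3 without C57BL/6 iNKT1 replicate 2 and 2 without C57BL/6 iNKT2 replicate 2.

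For iNKT1 against iNKT17 cells 2 of 24 were called (1.42% of all tested regions). At +13.2 kb, C57BL/6 libraries held -3.12 and -1.01 in iNKT1, 0.68 and 0.68 in iNKT2 and 3.19 and 2.65 in iNKT17 cells, and *Hivep3*-/- libraries 1.88 and 1.57, -0.40 and -0.59, and 1.74 and 1.23. The C57BL/6 order, with iNKT17 highest and iNKT1 lowest, was not seen in *Hivep3*-/- cells, where iNKT1 and iNKT17 libraries overlapped. The fitted difference of the changes was 5.22 (SE 0.84, adjusted p = 0.00847). It depends on 1 C57BL/6 iNKT1 library at its lowest value of -3.12, without which it was 4.16 (adjusted p = 0.0125), and with 1 added on the linear scale it was 2.91 (adjusted p = 0.00105). Only C57BL/6 iNKT17 cells reached the accessible level there (linear mean 7.70, against 0.307 in C57BL/6 iNKT1 cells), so the region was tested through the group in which it is high and its size is not well set. The change between genotypes was tested within iNKT17 cells alone (-1.44, SE 0.59, adjusted p = 0.254). At +20.4 kb the difference was 1.64 (SE 0.31, adjusted p = 0.0194). It fell below 3-fold with 1 added on the linear scale (1.41) and without C57BL/6 iNKT1 replicate 1 (1.47), C57BL/6 iNKT17 replicate 2 (1.53) or *Hivep3*-/- iNKT17 replicate 2 (1.44). The count was 5 without *Hivep3*-/- iNKT17 replicate 1. For iNKT17 against iNKT2 cells 0 of 19 were called by limma (1.02%), with 7 at an unadjusted p under 0.05, as were 14.9% of all tested regions. That count was 1 without C57BL/6 iNKT17 replicate 2, *Hivep3*-/- iNKT17 replicate 1 or *Hivep3*-/- iNKT2 replicate 1, and 2 without *Hivep3*-/- iNKT2 replicate 2.

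The promoters whose pattern was most like that of *Ifng* were found by Pearson correlation of log2 values over the 12 libraries. The search covered 21191 regions within 1000 bp of the start of a protein-coding gene, outside the window and accessible in a group. The promoters most alike were those of *Soat2* (r = 0.993), *Sntb2* (r = 0.991), *Cdk5rap3* (r = 0.990), *Il12rb2* (r = 0.986) and *Rac2* (r = 0.985). The points share 6 groups, so the coefficients describe the order of the groups. *Il12rb2* encodes the signalling chain of the IL-12 receptor, and its promoter region (chr6:67376012-67376511) had means of 6.42, 4.39 and 1.69 in C57BL/6 and 6.25, 3.70 and 1.23 in *Hivep3*-/- iNKT1, iNKT2 and iNKT17 cells. *Sntb2*, a syntrophin, had 5.79, 4.15 and 1.44 in C57BL/6 and 5.41, 2.88 and 1.32 in *Hivep3*-/- cells. *Soat2*, a cholesterol acyltransferase, had 6.51, 5.69 and 3.88 and 6.48, 4.69 and 3.32. In each of these 3 the iNKT2 mean was lower in *Hivep3*-/- cells, which is part of the pattern they were selected for.

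Genes that induce *Ifng* or carry its signal were taken with all regions that lie in them or within 10 kb. Among the 12 inducers and factors, 31 of 115 tested regions were called higher and 3 lower in C57BL/6 iNKT1 than iNKT2 cells (29.6%, against 16.0% of all tested regions), and 30 higher and 4 lower than in iNKT17 cells (29.6%, against 20.5%). The calls lay in a few genes. At *Il12rb2* 7 of 13 tested regions were higher and 1 lower than in iNKT2 cells, and 10 of 12 higher than in iNKT17 cells. At *Tbx21*, which encodes T-bet, 8 and 7 of 12 were higher, and at *Stat4*, the transducer of IL-12 signals, 8 and 7 of 14, with none lower at either gene. *Il18rap*, a chain of the IL-18 receptor, had 4 of 7 higher than in iNKT2 and 1 higher and 1 lower than in iNKT17 cells. *Runx3*, a Runt factor, had 3 of 20 higher than in iNKT2 and 4 higher and 2 lower of 22 than in iNKT17 cells. *Tyk2* had 1 of 7 higher in each comparison, *Jak2* had 2 of 5 and 1 of 4 lower, and *Il12rb1*, *Il18r1*, *Eomes*, *Hlx* and *Irf1* had 0 called in either.

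The called regions of the 2 receptor chains lay on opposite sides. They were compared between C57BL/6 iNKT1 cells and the iNKT2 or iNKT17 subset, where 16.0% and 20.5% of all tested regions were called. *Ifngr1*, the ligand-binding chain, had 9 of 14 regions higher than in iNKT2 and 7 of 14 higher than in iNKT17 cells, with 0 lower. *Ifngr2*, the signalling chain, had 0 higher and 3 lower of 8 and of 7. *Jak1* had 5 of 34 and 4 of 33 higher and 0 lower. These are smaller shares than those called in either direction over all tested regions, where 7.33% and 9.72% were called higher. *Socs1*, which encodes an inhibitor of the pathway, had 0 of 9 called and 1 of 9 higher.

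Between genotypes few regions of these genes were called. Among the inducers and factors, 1 of 113 was higher in *Hivep3*-/- iNKT1 cells (at *Jak2*), 3 of 94 were lower in *Hivep3*-/- iNKT2 cells (1 each at *Il12rb2*, *Tbx21* and *Jak2*) and 0 of 89 were called in iNKT17 cells. Their shares were 0.885%, 3.19% and 0%, against 1.15%, 1.68% and 0.271% of all tested regions. At *Jak1* 1 of 32 tested regions was higher in *Hivep3*-/- iNKT2 cells, and *Ifngr1*, *Ifngr2* and *Socs1* had 0 called in any subset. For the difference of changes between iNKT1 and iNKT2 cells, 4 of 116 regions of the inducers and factors were called, all positive (2 at *Tbx21*, 1 at *Il12rb2* and 1 at *Jak2*), against 2.06% of all tested regions called positive. The start regions of *Tbx21* (-0.29, SE 0.18, adjusted p = 0.357) and *Stat4* (0.23, SE 0.12, adjusted p = 0.241) were not called in iNKT2 cells.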

How the data were processed

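ATAC-seq was made from 12 libraries, 2 for each of 3 iNKT subsets in 2 genotypes. According to the study's methods and the submitters' processing notes, reads were trimmed with Trimmomatic 0.39, run through the ENCODE ATAC-seq pipeline with subsampled reads for peak calling, cleared of the Y chromosome and blacklisted regions, and merged and counted with chromVAR. The deposited values are log2 insertions per kilobase in 63309 regions of 500 bp, normalized with voom by the authors so that libraries share upper quantiles. No counts accompany them, so depth is unknown and no counting interval is given. Zero counts sit at the lowest value of a library, and no fold is given where both libraries of a group do.

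Regions were assigned to *Ifng* and annotated with GENCODE vM21 on GRCm38.p6 (mm10), and coordinates count from 1. Differences were tested with limma 3.58.1 (R 4.3.3) over the whole table, with 6 group means and a mean-dependent prior (6 residual and 7.17 prior degrees of freedom), in regions whose mean reached 5 on the linear scale in a compared group. Calls needed a Benjamini-Hochberg adjusted p under 0.1 and 3-fold, as in the study's definition of accessible and different regions. The fit was tested on simulated data. The window, CNS, motif, marker and pathway lists were chosen with earlier results of these data known. Library values are given for the start region, the regions matched to a CNS and those that a comparison turned on, with the other regions as ranges. The start region of a listed gene is the one nearest by its centre to any annotated transcript start, within 1000 bp of it. It need not cover that start. A gene of the pathway list is not reported here.

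Within a genotype, the same mouse number in the titles was taken to pair the subsets. Deviations of same-numbered libraries from their group means correlated at 0.163 to 0.237 over 56928 regions in all 6 pairs of subsets. Alternatives were no filter on low values, 1 added on the linear scale, median centring, the mouse number within genotype as a replicate block, and leaving out each library. Python 3.11.15, numpy 2.4.6, pandas 2.3.3, scipy 1.17.1, pysam 0.24.0 and matplotlib 3.10.9 were used.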

Additional observations from a re-analysis of the deposited data

Results flagged for a closer look

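At 3 places in the window the change between genotypes differed between subsets by a test of the difference itself. At the promoter the change in iNKT1 cells exceeded that in iNKT2 cells by 2.01 (limma adjusted p = 0.00486), and it was called under all 12 alternatives, with values from 1.86 to 2.14. At +13.2 kb the change in iNKT1 cells exceeded that in iNKT17 cells by 5.22 (adjusted p = 0.00847). Its value ran from 2.91 to 6.28 over 12 alternatives. The region was tested only because C57BL/6 iNKT17 cells, where it is high, reached the accessible level (linear mean 7.70), the other groups were below it and 1 of the C57BL/6 iNKT1 libraries was at its lowest value, so the size and the test of this difference carry little weight. At +20.4 kb the change in iNKT1 cells exceeded that in iNKT17 cells by 1.64 (adjusted p = 0.0194), and it was called under 8 of 12 alternatives, from 1.41 upward.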

How the results depend on the processing

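Of 586 alternative values for the 72 called differences, 568 kept their direction and their call, 18 kept the direction and lost the call, and 0 reversed. The 18 belonged to 9 differences. Without the filter on low values, the called regions numbered 1 in iNKT1 (+13.2 kb), 3 in iNKT2 (with +5.4 and +89.0 kb) and 1 in iNKT17 cells (+5.4 kb) between genotypes, 2 for the difference of changes between iNKT1 and iNKT2 cells and 1 for that between iNKT17 and iNKT2 cells. These added regions were under the accessible level in the compared groups. With 1 added on the linear scale, 1 region was called for the difference of changes between iNKT1 and iNKT17 cells. With the replicate block, 2 were called for iNKT1 against iNKT2 cells, and the block changed no other count of calls in the window. Leaving out 1 library gave 1 to 5 calls for iNKT1 against iNKT2, 1 to 5 for iNKT1 against iNKT17 and 0 to 2 for iNKT17 against iNKT2 cells, and the library left alone was assumed to vary like the other groups. The cause of these changes was not tested.

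Over the whole table, the calls between genotypes were 625, 923 and 147 in iNKT1, iNKT2 and iNKT17 cells. They were 1254, 1551 and 469 without the filter and 401, 619 and 82 with 1 added. Leaving out 1 library gave 411 to 710 in iNKT1 and 106 to 261 in iNKT17 cells. For the differences of changes, the 860 calls for iNKT1 against iNKT17 cells became 556 with 1 added and 412 to 977 without 1 library, and the 617 for iNKT17 against iNKT2 cells became 302 to 831 without 1 library. With 2 libraries a group and no counts, small changes in regions near the lowest values cannot be resolved.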

Other observations

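The 100 kb beyond each side of the window held 12 regions, and all those on the upstream side were highest by mean in iNKT17 cells in both genotypes. Upstream lies *Iltifb* (chr10:118289629-118295038, minus strand), a near copy of the gene for interleukin-22, a cytokine of type 17 immunity. A region in it (chr10:118293132-118293631) held 6.30 and 6.44 in C57BL/6 and 6.11 and 6.19 in *Hivep3*-/- iNKT17 libraries, against -1.65 to 1.60 in the other C57BL/6 libraries and -4.05 to 0.51 in the other *Hivep3*-/- ones. The difference between C57BL/6 iNKT17 and iNKT2 cells was 5.01 (limma adjusted p = 1.55e-06). Reads from near-identical copies may be placed at either, so the assignment to this copy is uncertain. Between the copy and *Ifng*, chr10:118307520-118308019 was also higher in C57BL/6 iNKT17 than iNKT2 cells, by 4.42 (adjusted p = 2.71e-05).

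A neighbouring region (chr10:118310590-118311089) was higher in iNKT2 than in iNKT1 cells of C57BL/6 mice, by 2.74 (log2 difference of iNKT1 against iNKT2 -2.74, SE 0.21, adjusted p = 3.73e-07). Its iNKT1 libraries held 2.00 and 2.10 in C57BL/6 and 3.26 and 3.39 in *Hivep3*-/- mice, and its iNKT2 libraries 4.83 and 4.74 in C57BL/6 and 3.23 and 3.98 in *Hivep3*-/- mice. The iNKT1 and iNKT2 libraries were separate in C57BL/6 mice and overlapped in *Hivep3*-/- mice, and the difference of changes was 2.46 (SE 0.29, adjusted p = 0.000992). Past the downstream end, chr10:118550159-118550658 in *Ifngas1* was higher in C57BL/6 iNKT1 than iNKT2 cells, by 3.79 (adjusted p = 0.000112). No flank region was called between genotypes within a subset by limma (0 of 8, 0 of 5 and 0 of 8 tested in iNKT1, iNKT2 and iNKT17 cells).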
